A study of Mus musculus with 3 samples.

Results

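The 9 genes named for their part in myelin examined here are Mal and 8 others, Mbp, Mog, Mag, Mobp, Cnp, Opalin, Ugt8a and Aspa. They were found by their symbols in a table of 56941 genes, and all 9 were present. The genes were chosen by their CPM levels in these same libraries, Mal for standing above the rest, so their levels are given as a description without a test. The samples were brain microvascular fragments, pieces of small vessel freed from the brain by mechanical and enzymatic dissociation, from wild-type adult C57BL/6J mice. There were 3 libraries of polyadenylated RNA (replicates 1, 2 and 3), all in 1 group, and no other tissue or condition was measured beside them.

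Myelin is the lipid-rich sheath that oligodendrocytes wrap around axons in the brain. Its compact layers are held together by proteins such as myelin basic protein, and its lipids include galactosylceramide, which makes many of its messengers dependable marks of mature oligodendrocytes in brain RNA. The Mal protein is a small proteolipid of the MARVEL family that travels in membrane domains rich in glycosphingolipids. It is made by myelinating oligodendrocytes and Schwann cells, but also outside them, in T cells and in polarized epithelia, where it serves transport to the apical membrane.

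The windows around the starts of 4 genes are shown as a description. The genes are Mal, its relative and chromosomal neighbour Mall, and the abundant myelin genes Mobp and Cnp. No level or spread of a gene was drawn from these windows. Each runs 5′ to 3′ on the strand of the gene, from 250 bases before the start to 50 bases after it, as RefSeq gives it in build GRCm38.p6, which is another build than that of the counts. They lie at chr2:127656646-127656945 (minus strand), chr2:127729848-127730147 (minus strand), chr9:120149492-120149791 (plus strand) and chr11:100574689-100574988 (plus strand). Capitals mark matches, on either strand, to letters of SOX factor sites (ACAAAG, or with another ending ACAATG), to letters of ETS factor sites (CGGAAG, or with another first base AGGAAG), to the GC box (GGGCGG) and to the TATA box (TATAAA).
Mal: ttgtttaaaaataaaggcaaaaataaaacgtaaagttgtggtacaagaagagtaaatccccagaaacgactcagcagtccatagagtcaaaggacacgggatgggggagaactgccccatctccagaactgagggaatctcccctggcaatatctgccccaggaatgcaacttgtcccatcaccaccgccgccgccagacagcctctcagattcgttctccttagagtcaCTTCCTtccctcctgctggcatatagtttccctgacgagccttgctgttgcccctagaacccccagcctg
Mall: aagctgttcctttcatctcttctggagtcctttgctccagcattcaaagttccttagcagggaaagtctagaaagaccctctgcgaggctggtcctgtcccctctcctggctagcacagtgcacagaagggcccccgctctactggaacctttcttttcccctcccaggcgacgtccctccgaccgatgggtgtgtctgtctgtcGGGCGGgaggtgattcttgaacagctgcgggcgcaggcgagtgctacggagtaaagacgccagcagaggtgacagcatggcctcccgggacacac
Mobp: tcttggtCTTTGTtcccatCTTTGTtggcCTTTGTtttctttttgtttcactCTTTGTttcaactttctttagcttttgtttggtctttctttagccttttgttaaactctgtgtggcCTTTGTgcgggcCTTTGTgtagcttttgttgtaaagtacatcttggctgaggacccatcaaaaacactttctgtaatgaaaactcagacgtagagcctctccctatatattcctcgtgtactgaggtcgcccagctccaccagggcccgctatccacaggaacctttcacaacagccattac
Cnp: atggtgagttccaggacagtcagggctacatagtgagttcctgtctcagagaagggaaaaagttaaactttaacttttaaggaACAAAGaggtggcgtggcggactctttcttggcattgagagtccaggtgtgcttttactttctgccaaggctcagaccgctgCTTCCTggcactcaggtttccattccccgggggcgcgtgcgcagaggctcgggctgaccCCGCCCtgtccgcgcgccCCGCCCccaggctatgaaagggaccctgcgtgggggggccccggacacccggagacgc
The Mal window held 1 match, to the ETS letters, and the Mall window 1, to the GC box. The Mobp window held 6 matches, all to the SOX letters, and the Cnp window 1 SOX, 1 ETS and 2 GC box matches. No match overlapped another. Of all 32851 RefSeq windows of this length, 28.6% held a SOX match, 46.5% an ETS match, 35.7% a GC box and 13.6% a TATA box. The window of Mobp was the only 1 with 6 or more SOX matches, a limit set at its own count. These matches describe the letters and were not tested for binding.

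Library totals ranged from 128428355 to 150449539 counts, so that a count of 0 would allow up to 0.0199 to 0.0234 CPM (3 counts per library), and all 9 genes had counts in every library. Blood and pituitary genes set single libraries apart. Of 5 erythroid genes all were called variable by edgeR and highest in replicate 1. Of 6 pituitary genes 4 were called and 5 were highest in replicate 2. Of all 18087 genes tested, 15 (0.0829%) were called. With a robust prior in edgeR all of these calls were lost, since 0 of all genes were called then (785 at an unadjusted p under 0.05).

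Mal was far above every other myelin gene in each library. It had 753, 495 and 896 CPM (counts scaled by library size) in replicates 1, 2 and 3, which rested on 98033, 69202 and 130093 counts, and averaged 715 ± 203 CPM (SD, n = 3). Replicate 3 was the highest and replicate 2 the lowest. By its mean CPM it ranked 146th of all genes in the table and above 98.9% of the detected genes, those at 1 CPM or more in every library.

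Next by mean CPM came Mbp, then Cnp and Mobp, of which Mbp and Mobp encode structural proteins of compact myelin. Mbp, whose product joins the cytoplasmic faces of the membrane, had 63.3, 71.7 and 66.4 CPM in replicates 1, 2 and 3, a mean of 67.1 ± 4.28 CPM. The Mbp locus also produces Golli transcripts outside oligodendrocytes, and a count per gene does not separate these from the myelin forms. Mobp, another basic protein of compact myelin, had 14.8, 16.8 and 15.6 CPM (15.8 ± 1.02 CPM). The libraries of both genes lay close together, with replicate 2 slightly the highest.

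Cnp, an enzyme that keeps cytoplasmic channels open in myelin, had 43.3, 39.9 and 42.5 CPM in replicates 1, 2 and 3 (41.9 ± 1.79 CPM). Mag, an adhesion protein of the innermost myelin layer facing the axon, had 3.27, 3.38 and 3.52 CPM (3.39 ± 0.128 CPM). For each of them the highest library was less than 1.5 times the lowest.

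The remaining 4 genes were under the detection limit in at least 1 library. Mog, an immunoglobulin-family protein of the outer myelin surface, had 97, 95 and 95 counts in replicates 1, 2 and 3, or 0.745, 0.680 and 0.654 CPM. Aspa, which splits N-acetylaspartate and so frees acetate for lipid synthesis, had 138, 108 and 70 counts (1.06, 0.773 and 0.482 CPM). Ugt8a, the enzyme that makes galactosylceramide, had 75, 80 and 37 counts (0.576, 0.572 and 0.255 CPM). Opalin, a membrane glycoprotein of mature oligodendrocytes, had 23, 50 and 20 counts (0.177, 0.358 and 0.138 CPM). Mog hardly differed between libraries, whereas Aspa and Ugt8a were lowest in replicate 3 and Opalin was highest in replicate 2. The exact 95% Poisson interval of Opalin in replicate 2, 0.2655 to 0.472 CPM, lay just above the 0.112 to 0.2652 CPM of replicate 1 and above the 0.0842 to 0.213 CPM of replicate 3. For Ugt8a the interval of replicate 3, 0.179 to 0.351 CPM, lay below both others, which began at 0.453 and 0.454 CPM. For Aspa that of replicate 3, 0.376 to 0.609 CPM, also lay below both others, which began at 0.891 and 0.634 CPM. The intervals of Mog overlapped. Those of Mal and of Mbp did not overlap between libraries, so such gaps are not particular to genes with few counts. These intervals cover counting error only.

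**Figure D1:**
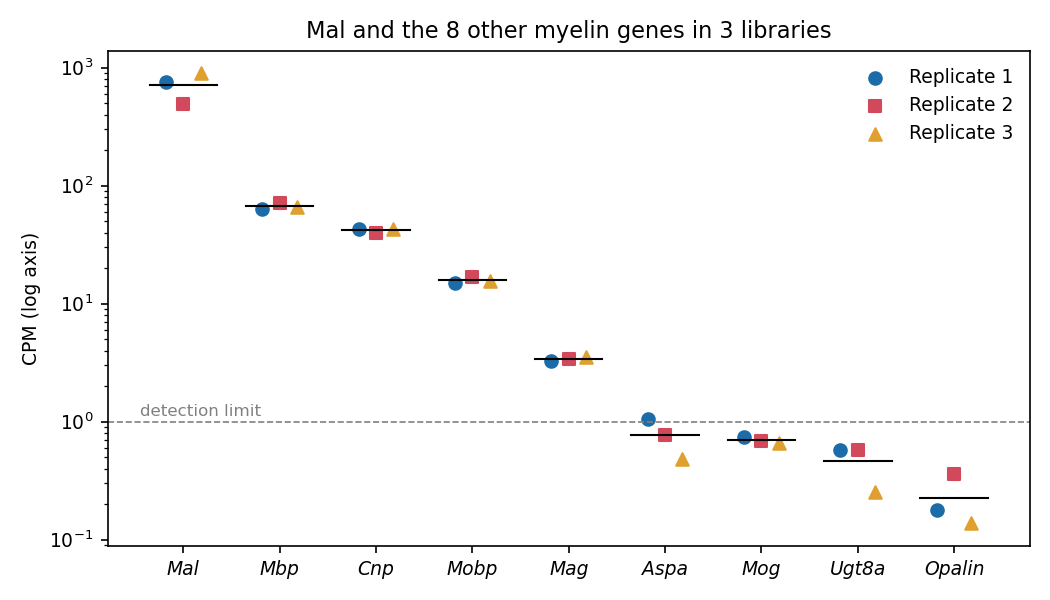
CPM of each myelin gene on a log axis, 1 point per library and a line at the mean of 3 libraries, with the detection limit of 1 CPM dashed. Mal sits between 495 and 896 CPM, all other myelin genes at or below 71.7 CPM, and Aspa, Mog, Ugt8a and Opalin have at least 1 library under the limit.

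In all, 5 of the 9 genes were detected, or 4 of 8 without Mal, beside 23.2% of all genes in the table and 43.3% of those with any count. The median of the 8 genes was 1.57, 1.48 and 1.45 on the log2(CPM + 1) scale in replicates 1, 2 and 3. Mal exceeded that median by 7.99, 7.48 and 8.36 on the same scale, a mean difference of 7.94 ± 0.44 (SD, n = 3). Set against single genes, Mal was 11.9, 6.90 and 13.5 times Mbp in CPM in replicates 1, 2 and 3. Without replicate 2 the mean of Mal was 825 CPM and its excess over the median of the 8 genes 8.17 on the log2(CPM + 1) scale. Without replicate 1 these were 696 CPM and 7.92. It held 83.9% ± 4.59 of the counts on all 9 genes. In this bulk RNA, fewer cells of a type and less RNA per cell cannot be told apart.

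Levels of different genes also depend on length, so CPM was divided by the kilobases of exon annotated for each gene in GENCODE M21. Mal kept the top place with 271, 178 and 323 CPM per kilobase in replicates 1, 2 and 3, against 11.9, 10.95 and 11.7 for Cnp and 7.47, 8.47 and 7.84 for Mbp. Mobp averaged 2.30 ± 0.148 CPM per kilobase, Mag 0.832 ± 0.0314 and Mog 0.407 ± 0.0275. Down to Mog, the libraries of neighbours in this order did not overlap. Aspa (0.0810 to 0.178 CPM per kilobase), Ugt8a (0.0562 to 0.127) and Opalin (0.0468 to 0.121) overlapped each other and have no order beyond their spread. Mal was 22.2 ± 5.70 times Cnp and 32.8 ± 10.5 times Mbp per kilobase, and its excess over the median of the 8 genes was 7.29 ± 0.43 on the log2(CPM per kilobase + 1) scale. With the exons of GENCODE's basic transcripts alone, a choice made after seeing the data, Mal stayed at 257 CPM per kilobase, Cnp had 17.8 and Mbp 8.26, but Aspa at 0.414 ± 0.155 could no longer be placed below Mog at 0.407.

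**Figure D2:**
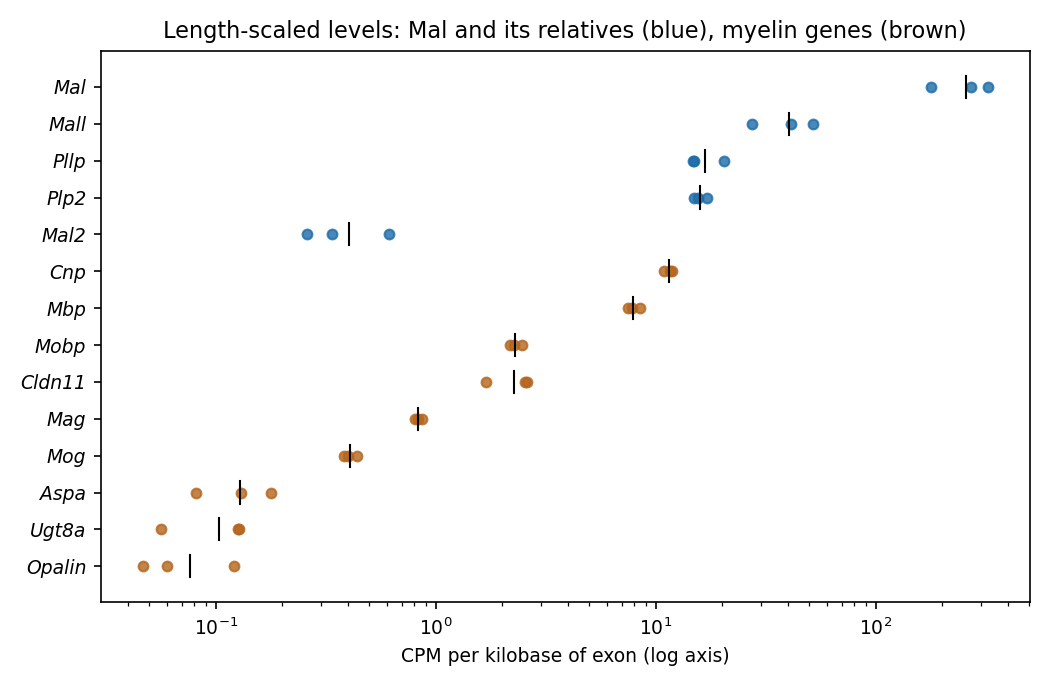
CPM per kilobase of exon on a log axis, 3 library points per gene with the mean as a bar, for Mal and relatives of its family (blue) and for myelin genes (brown). Mal lies between 178 and 323, its neighbour Mall around 40.3 and Cnp, the highest of the 8 other genes, around 11.5.

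By coefficient of variation, Mal varied more between the libraries than Mbp, Mobp, Cnp, Mag and Mog, and less than Aspa, Ugt8a and Opalin. Mal deviated from its own mean log2 CPM by 0.12, -0.49 and 0.37 in replicates 1, 2 and 3, so that replicate 3 had 1.81 times the level of replicate 2. Mbp deviated by -0.08, 0.10 and -0.01 and Mobp by -0.08, 0.10 and -0.01. Cnp deviated by 0.05, -0.07 and 0.02, Mag by -0.05, -0.004 and 0.06 and Mog by 0.11, -0.03 and -0.08. The coefficient of variation was 28.4% for Mal, against 6.37% for Mbp, 6.45% for Mobp, 4.27% for Cnp, 3.77% for Mag and 6.77% for Mog. Aspa, Ugt8a and Opalin, with few counts, had 37.5%, 39.4% and 52.4%. None of the 8 genes shared the order of Mal, with replicate 3 above replicate 1 and replicate 1 above replicate 2. That order was held by 14.5% of the detected genes, so its absence among 8 genes shows no difference from genes at large. Among the 2182 genes at a mean of 100 CPM or more, the median ratio of highest to lowest library was 1.19. A ratio at least as large as that of Mal was found in 59 (2.70%), Mal itself included.

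A test across all genes asked which of them varied between the libraries more than genes of like level. In edgeR's quasi-likelihood dispersion test, 0 of the 9 genes passed an adjusted p of 0.05, beside 15 of 18087 genes tested (0.0829%). At an unadjusted p under 0.05 there were 937 genes in all, and Mal alone among the 9. The edgeR values of Mal were an unadjusted p of 0.0466 and an adjusted p of 0.952. Without replicate 2 its unadjusted p in edgeR was 0.470, and without replicates 1 or 3 it was 0.0216 or 0.0306. DESeq2 marked 112 genes as dispersion outliers, and 0 of the 9 were among them. The number of all genes called was 7, 80 or 33 without replicate 1, 2 or 3.

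**Figure D3:**
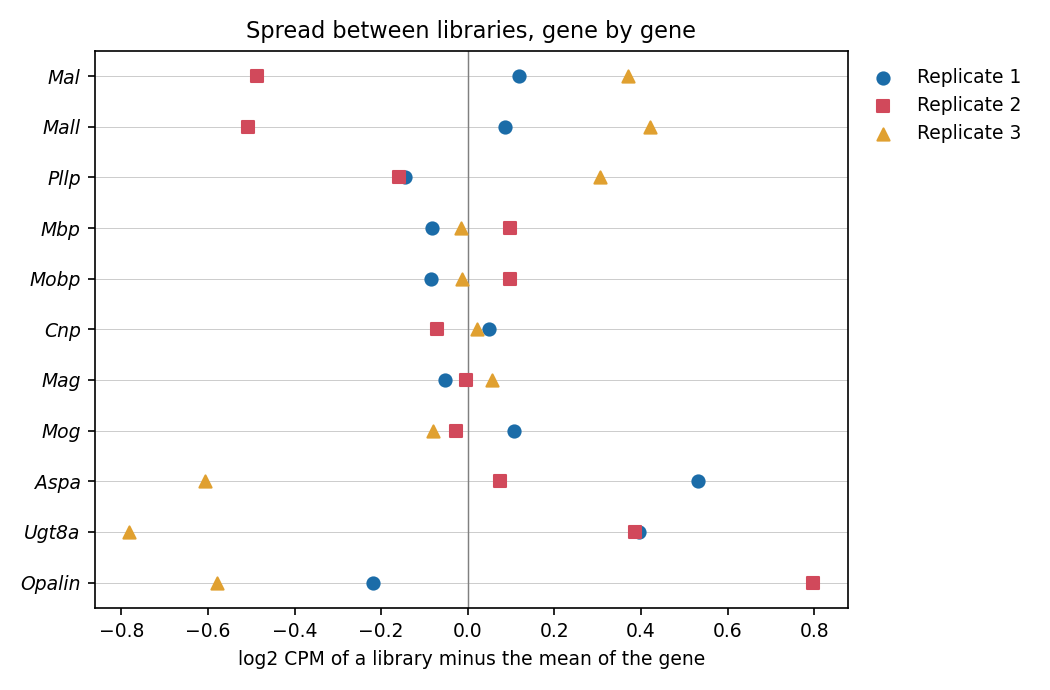
Deviation of each library from the mean log2 CPM of the gene, for Mal, its relatives Mall and Pllp and the 8 other myelin genes. Mal and Mall share the spread from -0.49 and -0.51 in replicate 2 to 0.37 and 0.42 in replicate 3, while Mbp, Mobp, Cnp, Mag and Mog stay within 0.11 of their means. Aspa, Ugt8a and Opalin, with few counts, spread more widely, from -0.78 (Ugt8a in replicate 3) to 0.80 (Opalin in replicate 2).

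The gene whose library values lay closest to those of Mbp among the list genes was Mobp. With likeness taken as the Euclidean distance between the 3 log2 deviations, Mobp ranked 2nd of 9506 genes at a mean of 10 CPM or more, at a distance of 0.0020. Ttc23 was first, at 0.0016, and Trim28, Mta3 and Fam136a completed the closest 5. Cnp ranked 5095th, at 0.216, and Mal 9332nd, at 0.728. With 3 libraries many genes come close by this measure, and it was used only to describe them.

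For Mal the same measure gave another set of genes. Among 2181 genes at a mean of 100 CPM or more, Thbd, which encodes the anticoagulant receptor thrombomodulin of endothelium, was the closest, at a distance of 0.0353, with 671, 453 and 795 CPM in replicates 1, 2 and 3. Next came Paqr5, a membrane receptor for progestins, with 314, 196 and 351 CPM. The riboflavin transporter gene Slc52a3 had 231, 164 and 285 CPM and the multipass membrane protein gene Serinc3 had 2665, 1828 and 3028 CPM. Each of these genes was lowest in replicate 2 and highest in replicate 3, as the choice by likeness implies.

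Mall, the relative of Mal that lies next to it, followed it closely. Mall had 82.9, 54.9 and 104 CPM in replicates 1, 2 and 3, a mean of 80.7 ± 24.8 CPM, and ranked 5th in closeness to Mal among 9506 genes at a mean of 10 CPM or more, at a distance of 0.0630. Mal was 9.09, 9.01 and 8.58 times Mall in CPM in replicates 1, 2 and 3, and 6.42 ± 0.197 times Mall per kilobase. In the RefSeq order of protein-coding genes on mouse chromosome 2 (GRCm38.p6), Mall directly follows Mal. The neighbour on the other side, the mitochondrial ribosome gene Mrps5, had 37.5, 40.0 and 40.9 CPM and did not share the spread of Mal. The longest run common to transcripts of Mal and Mall in GENCODE M21 was 12 bases, and neither has exons under another gene there.

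Of 15 relatives with a MARVEL domain, 13 were detected, beside 23.2% of all genes in the table and 43.3% of those with any count. The middle relative stood at 5.37 in log2(CPM + 1), beside 3.68 for all genes tested in edgeR and 4.79 for all detected genes. The tight junction gene Ocln led with 469 ± 53.0 CPM, followed by Cmtm6 with 355 ± 16.4 CPM and Marveld1 with 240 ± 19.0 CPM. Pllp, which encodes plasmolipin, a myelin proteolipid also found in epithelia, had 31.1, 30.8 and 42.5 CPM in replicates 1, 2 and 3. However, 54.2% of its annotated exon length lies under Gm45767 on the other strand, and the strand setting of the counting is not given in the sources used here. Plp2 had 21.2 ± 1.54 CPM, Mal2, which serves transcytosis in human epithelial cells, 1.19 ± 0.546 CPM, and Marveld3, the lowest, 1.04 ± 0.161 CPM. The order of Mal over the libraries was shared by 7 of the 15, beside 14.5% of the detected genes. None of the 15 was called variable by edgeR, beside 0.0829% of all genes tested, a share at which a list this short would hold none.

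Genes of oligodendrocytes outside the 9 were mostly detected. Their median was below that of the genes tested in edgeR and above that of all genes in the table. Cldn11, the claudin of myelin tight junctions, had 4.85, 3.16 and 4.77 CPM in replicates 1, 2 and 3 (4.26 ± 0.953 CPM), lowest in replicate 2. Of the list of 16 such genes, 11 were detected, beside 23.2% of all genes in the table and 43.3% of those with any count. Enpp2 (2311 ± 757 CPM), Trf (321 ± 35.9 CPM) and Car2 (107 ± 15.4 CPM) led. They are all known from other cells too, Enpp2 and Trf from choroid plexus among them. For Trf, 63.5% of the exon length is shared with Gm20425 on the same strand. The lowest was Hapln2, a link protein of nodes of Ranvier, at 0.0910 ± 0.0303 CPM. The list median was 1.95 on the log2(CPM + 1) scale, beside 3.68 for all genes tested and 0.0066 for all genes in the table. Genes tested had passed edgeR's filter for low counts, which Hapln2 did not.

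By median the transcription factors that drive the lineage were lower still. Of 9, 2 were detected, near the share of all genes in the table, 23.2%. These were Tcf7l2 with 14.5 ± 1.44 CPM and Olig1 with 6.43 ± 1.14 CPM, and Tcf7l2 is also expressed outside the lineage. Sox8 had 1.08 ± 0.534 CPM and Zfp488, the lowest, 0.0572 ± 0.0164 CPM. The median member stood at 0.70 on the log2(CPM + 1) scale. Of 13 genes of myelin lipid synthesis, 11 were detected, beside 23.2% of all genes in the table. Scd2 (787 ± 203 CPM), Acly (195 ± 3.74 CPM) and Cers2 (176 ± 5.61 CPM) were the highest. Fa2h, which hydroxylates the fatty acids of myelin galactolipids, had 0.270 ± 0.0795 CPM. Gal3st1, which turns galactosylceramide into sulfatide, was the lowest at 0.135 ± 0.0582 CPM. None of the 13 lipid genes was called variable by edgeR, nor any of the 8 transcription factors that passed its filter, which Zfp488 did not. Of all genes tested, 0.0829% were called.

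Other cell types were followed through marker lists, since the libraries hold all cells that remain on the fragments. Over the 3 libraries the 33 oligodendrocyte markers without Mal summed to 2172 to 3755 CPM, of which Enpp2 alone made 1484 to 2970 CPM. The median member stood at 1.49 on the log2(CPM + 1) scale, and 17 of 33 were detected, beside 23.2% of all genes in the table. None of the 33 was at 0 in any library. All 12 endothelial markers were detected and summed to 18981 to 23981 CPM. All 8 smooth muscle markers summed to 5377 to 6149 CPM, all 9 microglial markers to 5324 to 6956 CPM and all 9 astrocyte markers to 1081 to 1979 CPM. The 8 choroid plexus and ependymal markers, all detected, summed to 5034 to 8146 CPM. All 10 pericyte markers were detected, as were 7 of 7 fibroblast and 8 of 10 neuronal markers. No marker of these lists was at 0 in any library.

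Median deviations of these lists by library are given beside those of Mal. Smooth muscle markers deviated by 0.07, -0.17 and 0.10 on the log2(CPM + 1) scale in replicates 1, 2 and 3 and microglial markers by 0.08, -0.21 and 0.06, both lowest in replicate 2 as Mal was. Of these, 5 of 8 and 5 of 9 shared the order of Mal, beside 14.5% of the detected genes. Endothelial markers deviated by -0.18, 0.00 and 0.15, highest in replicate 3 as Mal was, with 1 of 12 in its order. Astrocyte markers deviated by 0.04, 0.27 and -0.33 and the 8 myelin genes by 0.00, 0.05 and -0.02. Fibroblast markers deviated by 0.11, -0.20 and -0.05 and neuronal markers by 0.11, -0.10 and -0.07, also lowest in replicate 2 but highest in replicate 1. In the order of Mal were 1 of 7 and 1 of 10. A single gene in that order among 7, 10 or 12 shows no difference from the detected genes. Pericyte markers deviated by -0.13, 0.16 and 0.01 and choroid plexus and ependymal markers by 0.16, 0.08 and -0.37. The part of any of these cells in the values of Mal was not tested.

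**Figure D4:**
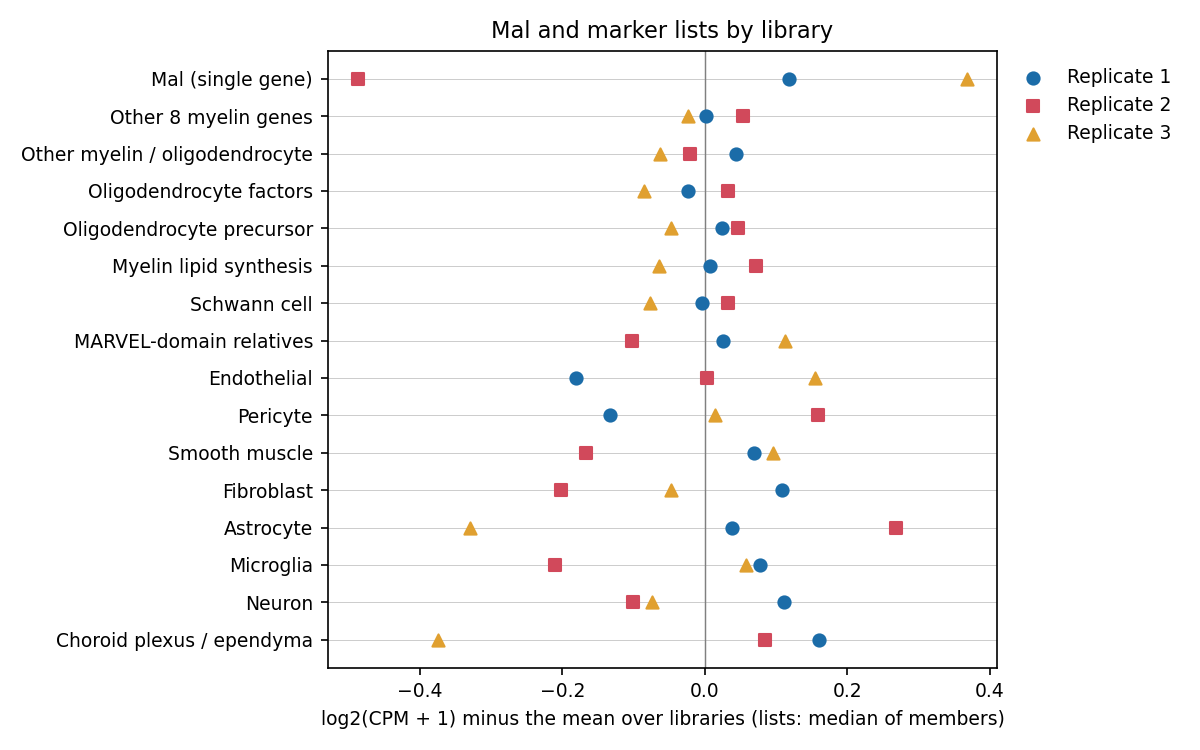
Deviation of each library from the mean over libraries on the log2(CPM + 1) scale, for Mal alone and for the median member of each marker list, 1 point per library. Mal spans -0.49 to 0.37, the 8 other myelin genes -0.02 to 0.05, and the MARVEL relatives and the smooth muscle, fibroblast, microglial and neuronal lists are lowest in replicate 2.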

How the data were processed

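Polyadenylated RNA of 3 libraries was sequenced from 400 ng of total RNA each with paired reads of 150 bp, per the labels. The deposited table holds raw counts per gene symbol. Reads were assigned with featureCounts (Subread 1.4.6-p5) on build GRCm39, per the submitters' processing notes; the sources used here give no aligner, annotation release, strand setting or rule for multi-mapping reads. The design text speaks of 3 mice, and the libraries were taken as 1 mouse each.

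Counts were scaled to CPM with TMM effective library sizes in edgeR 4.0.16 (R 4.3.3). Detection asked for at least 1 CPM in all libraries, and a pseudocount of 1 was used for log2 values, which understates differences among low genes. Variation was tested with an intercept-only edgeR quasi-likelihood fit to genes kept by filterByExpr, each quasi-dispersion against the trended prior (upper-tail F test, Benjamini-Hochberg over all 18087 genes, threshold 0.05); DESeq2 1.42.0 was an alternative. In simulated data the test recovered 15.5% of genes shifted 2-fold in 1 library and 83.5% of those shifted 4-fold. Each share came from 1 random draw of 200 shifted genes, and another draw recovered a larger but still minor share of the 2-fold shifts. Most 2-fold shifts would thus be missed. Exon lengths came from GENCODE M21 (GRCm38), matched by symbol for 48985 genes with 98.2% of the counts. No library copied another: over 13211 detected genes, the chi-square statistic comparing 2 libraries averaged between 179 and 252. Tables were handled in Python 3.11.15 with pandas 2.3.3.

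The 18 lists, that of the 9 genes among them (170 genes, all in the table), were chosen with earlier results of these data known. Named from each list were the 3 highest genes and the lowest, with Cldn11, Pllp, Plp2, Mall and Mal2 always named; Fa2h and the genes next to Mal were added after their values were seen, as were the motifs. Some genes that this rule names are not reported here. Scaling, pseudocount, detection limit, filter, prior and left-out libraries were varied.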

Additional observations from a re-analysis of the deposited data

How the results depend on the processing

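No group comparison exists, so a test of Mal against the other genes was not made; a sign-flip test over 3 libraries could not go below 0.25. No paired analysis was possible because all libraries belong to 1 group. The excess of Mal over the median of the 8 other genes, 7.94 on the log2(CPM + 1) scale, was 7.94 with library totals or DESeq2 size factors. It was 8.60 with a pseudocount of 0.1, 6.93 against the mean of the 8 genes and 4.70 against the 4 detected ones, and 7.73 to 8.17 with 1 library left out. Per kilobase the excess was 7.29, or 7.10 to 7.53 with 1 library left out and 7.07 with basic transcripts, against 7.94 undivided by length. The number of the 9 genes detected was 5, or 6 at 0.5 CPM and 4 at 5 CPM. The levels of the 9 genes moved by less than 1 SD in all 45 comparisons with another scaling or a library left out. Leaving 1 of 3 libraries out cannot move a mean by 1 SD, so those comparisons could not have come out otherwise. Over them the mean of Mal ran from 624 CPM without replicate 3 to 825 CPM without replicate 2. The number of all genes called variable, 15, was 173 without a filter, 15 with RLE normalization, 0 with a robust prior in edgeR (785 at an unadjusted p under 0.05), 112 by DESeq2 and 7 to 80 with 1 library left out; the cause was not tested. None of these settings called any of the 9 genes. With 3 libraries, a missing call does not show that a gene did not vary.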

Other observations

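Genes listed with the receptors of the myelin inhibitors Mag, Omg and Nogo had a median of 1.42 on the log2(CPM + 1) scale. The median was 3.68 for all genes tested in edgeR, which had passed its filter for low counts, and 0.0066 for all genes in the table. Of the 6 listed genes, 3 were detected, beside 23.2% of all genes in the table and 43.3% of those with any count. Rtn4rl1, a relative of the Nogo receptor, led with 57.0, 57.6 and 53.8 CPM in replicates 1, 2 and 3, followed by Lingo1 (2.33 ± 0.133 CPM) and Pirb (2.02 ± 0.346 CPM), while Rtn4rl2 had 0.234 ± 0.0567 CPM (SD, n = 3 each).

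Peripheral myelin was followed through a list of 11 Schwann cell genes, of which 5 were detected. The share detected was 23.2% of all genes in the table and 43.3% of those with any count. Pmp22, which many other cells also express, had 155, 124 and 173 CPM in replicates 1, 2 and 3. Prx (5.99 ± 1.09 CPM) and Dhh (4.97 ± 1.20 CPM) came next and Pou3f1 was the lowest (0.287 ± 0.142 CPM). Of the precursor list, 7 of 10 genes were detected, led by Cspg4 (224 ± 14.3 CPM, also a pericyte gene), Ptprz1 (62.9 ± 18.1 CPM) and Sox6 (17.0 ± 2.33 CPM), with Neu4 the lowest at 0.123 ± 0.0550 CPM. None of the 11 Schwann cell genes or the 6 genes listed with myelin inhibitor receptors was called variable by edgeR. Nor was any of the 8 precursor genes that passed its filter, Neu4 not among them. Of all genes tested, 0.0829% were called.

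Among genes at a mean of 10 CPM or more, those closest to Mal over the libraries besides Thbd and Mall were the potassium channel gene Kcna5 (65.0, 41.9 and 78.7 CPM in replicates 1, 2 and 3), Emp1 (66.0, 42.3 and 75.4 CPM) and Klhl2 (97.1, 62.5 and 120 CPM).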
